A study of Mus musculus with 3 samples.

Results

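Zinc finger and BTB protein genes were compared between the ureteric tree and the rest of the embryonic mouse kidney. The members were all genes whose symbol in the platform annotation begins with Zfp, Zbtb, Zc3h, Zdhhc, Zkscan or Zfx. The array carried 249 such genes, and 58 of them had values on all 3 arrays. Kidneys came from HoxB7-GFP transgenic mice at 15.5 days post coitum (dpc), with both sexes pooled; the Hoxb7 promoter drives green fluorescent protein (GFP) in the ureteric tree, the branching epithelium that later forms the collecting ducts. Fluorescence sorting split the cells into a GFP+ and a GFP- fraction, so both fractions carry the transgene, and amplified RNA of both was hybridised to each array in 2 colours, without a dye swap. The values are log2 ratios, likely of GFP+ over GFP-, as the wording of the titles and the channel order give it; the dyes are not stated, and every direction below is read that way. In sorted bulk RNA, fewer cells of a type and less RNA per cell cannot be told apart.

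The symbol rule joins several kinds of protein. Most Zfp genes encode C2H2 zinc finger proteins, in which pairs of cysteines and histidines hold a zinc ion so that the finger can read DNA; many also carry a KRAB domain, which recruits the corepressor Trim28 and silences transposons and other targets. Zbtb proteins join such fingers to a BTB domain, through which they pair and bind corepressors or the ubiquitin ligase scaffold Cul3. Most Zc3h proteins, and Zfp36, have CCCH fingers that bind RNA. Zdhhc proteins are membrane enzymes that attach palmitate to other proteins and are not DNA-binding factors, and Zbtb11os1 is annotated as a long noncoding RNA, so the name zinc finger and BTB protein does not hold for every member.

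Zfp467, a C2H2 zinc finger transcription factor known to promote fat cell formation, had the highest ratio and was the only member that passed the test. Its log2 ratio was 0.78, 1.18 and 0.96 on arrays 1, 2 and 3. All 3 values were well above 0. Its mean was 0.97 ± 0.20 (SD, n = 3 arrays), or 1.96-fold higher in GFP+ cells (limma adjusted p = 0.0408). Of all 3915 genes tested, 1.38% were called higher and 1.4% lower, and 1 of the 58 members was called higher and 0 lower, so the members' share was near the background in the first direction. At an unadjusted p below 0.05 limma gave 6 members higher and 1 lower (12.1% of the members), against 331 and 251 of all 3915 genes (14.9%). An ordinary one-sample statistic gave 4 and 1 members unadjusted, against 284 and 187 of all genes. After adjustment it gave 0 members (0.0255% of all genes passed). Zfp467 missed the threshold without array 2 (adjusted p = 0.122), without array 3 (0.337), with arrays 2 and 3 averaged to 1 replicate (0.200) and with the ordinary statistic (0.276). Its mean lay between 0.87 and 1.07 when each array was left out in turn.

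Zfpm1, also called FOG1, is a multi-finger cofactor that binds GATA transcription factors. Its log2 ratio was 0.37, 1.10 and 0.94 on the 3 arrays. The value of array 1 was the lowest, and all were positive. The mean was 0.80 ± 0.39, or 1.74-fold, with a 95% interval from 0.32 to 1.28 (limma adjusted p = 0.133, above the threshold also after centring, scaling or quantile normalization); without array 1 it passed (mean 1.02, adjusted p = 0.00196). Gata3, the GATA factor of the ureteric duct, had 2.35 ± 0.39, and Gata2 had 0.58 ± 0.34. Zfpm1 is also known from red cell precursors, and all 4 erythroid markers were measured. Of these, 2 fell, Alas2 (-2.15 ± 0.07) and Hba-x (-2.22 ± 0.38), and the threshold was missed by Tfrc (0.38 ± 0.17) and Hba-a1 (-0.33 ± 0.34). Their part in the ratio of Zfpm1 was not tested.

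Zfp36, also called tristetraprolin, binds AU-rich elements in messenger RNAs and brings in the deadenylation machinery; it had the lowest mean of the 58 members. Its log2 ratio was -0.84, -0.23 and -0.35 on the 3 arrays. All 3 values were negative, with array 1 lowest. The mean of -0.47 ± 0.32 had a 95% interval from -0.93 to -0.020 and missed the threshold (limma adjusted p = 0.313). Without array 1 the mean was -0.29 (limma adjusted p = 0.0519). With array weights Zfp36 passed as lower (-0.33, limma adjusted p = 0.00974), a fit in which array 1 had a weight of only 0.15.

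The stretches before the annotated starts of these genes are shown because they are the members at both ends of the range. Each holds the 250 bases upstream of the start, from RefSeq on GRCm38.p6, printed along the gene's strand. Capitals mark matches to a GC box (GGGCGG) or a GATA motif (GATA preceded by A or T and followed by A or G), searched on both strands; CCAAT on both strands and TATAAA on the gene's strand were also searched, and no capitals overlap another motif.
Zfp467 (chr6:48445091-48445340, minus strand): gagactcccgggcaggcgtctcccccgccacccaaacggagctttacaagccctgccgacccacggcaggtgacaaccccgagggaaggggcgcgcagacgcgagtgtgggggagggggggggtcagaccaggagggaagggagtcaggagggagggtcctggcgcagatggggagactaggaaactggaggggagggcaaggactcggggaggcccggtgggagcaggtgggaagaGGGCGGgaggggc
Zfpm1 (chr8:122281891-122282140, plus strand): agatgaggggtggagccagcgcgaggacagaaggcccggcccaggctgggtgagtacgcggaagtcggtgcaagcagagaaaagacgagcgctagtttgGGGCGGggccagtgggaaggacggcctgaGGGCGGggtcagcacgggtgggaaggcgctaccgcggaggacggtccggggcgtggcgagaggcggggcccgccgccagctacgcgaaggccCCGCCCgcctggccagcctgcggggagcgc
Zfp36 (chr7:28379229-28379478, minus strand): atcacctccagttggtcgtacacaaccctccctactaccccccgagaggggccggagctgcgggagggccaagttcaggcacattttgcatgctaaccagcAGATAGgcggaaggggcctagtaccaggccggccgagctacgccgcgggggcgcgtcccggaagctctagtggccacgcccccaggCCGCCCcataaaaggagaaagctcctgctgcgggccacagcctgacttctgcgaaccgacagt
The GC box occurred 1 time before Zfp467, 3 times before Zfpm1 and 1 time before Zfp36. The only GATA match lay before Zfp36, starting at base -149 from the start, and neither CCAAT nor TATAAA occurred in the 3 stretches. RefSeq listed a promoter for 53 of the 58 members; 10 of these have several, of which the first listed was used. A GC box was present in 58.5% of the 53 and in 59.9% of 3153 genes tested that have a listed promoter (32.7% of all 32851 promoters). The corresponding shares were 18.9%, 18.05% and 26.5% for the GATA motif, 32.1%, 38.1% and 33.9% for CCAAT, and 3.77%, 4.63% and 7.59% for TATAAA. Median GC content was 58.4% in the members' promoters and 59.6% in those of the genes tested. Of these motifs, the CCAAT share differed most between the members and the genes tested; these shares describe letters only and were not tested.

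Over the 58 members, mean log2 ratios ran from -0.47 to 0.97, with a median of 0.083 and an interquartile range of 0.30. Over all genes tested the means ran from -3.66 to 2.89, with a median of 0.034 and an interquartile range of 0.39. A mean beyond 0.5 in size was found for 3 members (5.17%) and 12.9% of all genes, and a mean beyond 1 for 0 members and 3.04% of all genes. Means were positive for 37 members (63.8%) and for 54.9% of all genes; after each array was centred on its median, 32 members were positive. The smallest mean that passed the threshold among all genes was 0.89 in size, so Zfp467 was the only member with a mean large enough for any call. For 53 members the 95% interval lay within 1 log2 unit of 0, that is, within 2-fold in either direction. The other 5 were Zfp467, Zfpm1, Zfp560, Zfp1 and Zfp287. In these intervals limma draws each gene's variance towards that of all genes and takes the arrays as independent. Zfp148, with an SD of 0.80, was thus among the 53, with an interval from -0.95 to 0.55.

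**Figure D1:**
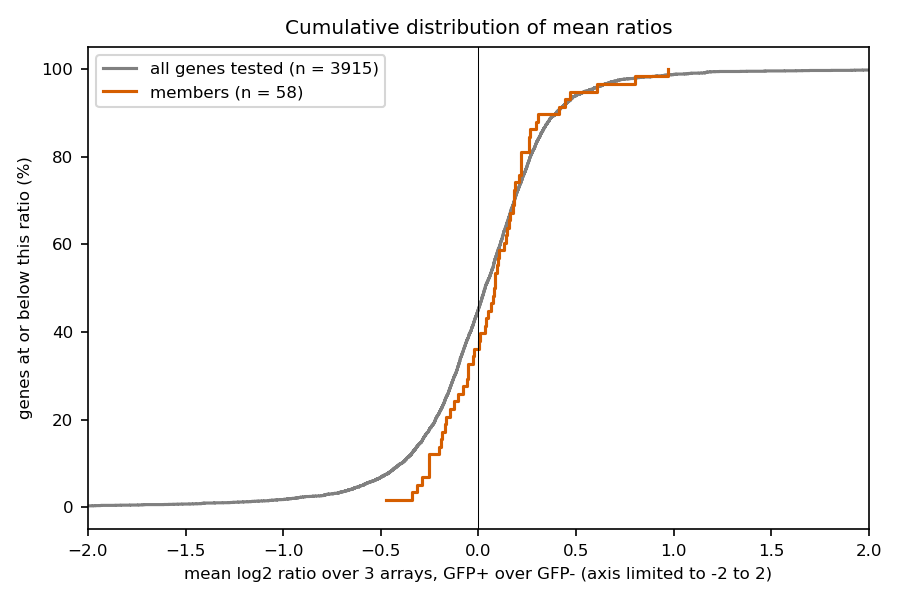
Cumulative share of genes (percent, vertical axis) at or below each mean log2 ratio over the 3 arrays (horizontal axis, limited to -2 to 2) for the 58 members and for all 3915 genes tested. The members' curve spans -0.47 to 0.97 and lacks the long tails of the curve of all genes.

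Behind Zfp467 and Zfpm1, 4 further C2H2 genes were positive on all 3 arrays with a limma interval above 0, and none of them passed over all genes. Zfp560 had log2 ratios of 0.23, 0.96 and 0.64, with a mean of 0.61 ± 0.36 (limma adjusted p = 0.228). Zfp326, whose product belongs to a complex that links messenger RNA particles to RNA polymerase II, had 0.24, 0.53 and 0.63. Zfp518a had 0.14, 0.58 and 0.62. Array 1 was the lowest of the 3 for each of these genes. Zfp827, known in human cells for bringing the NuRD complex to telomeres, was the most even of this group, with 0.30, 0.44 and 0.51 and a mean of 0.41 ± 0.11. By the ordinary one-sample statistic, unadjusted p was 0.101 for Zfp560, 0.0567 for Zfp326, 0.0985 for Zfp518a and 0.021 for Zfp827. The next highest were Zfp2 (0.31 ± 0.29), Zfp445 (0.27 ± 0.28), a KRAB protein that protects genomic imprints, and Zfp871 (0.26 ± 0.32), and each of these had a value below 0 on array 1.

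At the lower end of the Zfp genes, the ratios of the 3 arrays disagreed most. Zfp1 had log2 ratios of 0.88, -1.47 and -0.43, Zfp287 had 0.88, -0.87 and -0.89, and Zfp148, a binder of GC-rich promoters, had 0.68, -0.86 and -0.43. In each, array 1 was high and arrays 2 and 3 were low. Their SDs of 1.18, 1.02 and 0.80 were the largest of the 58, against a median SD of 0.26 over the members and 0.31 over all genes, and their means (-0.34, -0.29 and -0.20) did not differ from 0 beyond that spread. Other low members were more even. Zfp638, a nuclear protein that helps silence unintegrated retroviral DNA, had -0.25 ± 0.15 and was negative on all 3 arrays. So were Zfp507 (-0.19 ± 0.07) and Zfp90 (-0.17 ± 0.16), whereas Zfp710 (-0.26 ± 0.26) was positive on array 3 and Zfp219 (-0.19 ± 0.29), a partner of Sox9 in cartilage, was positive on array 1. Limma adjusted p lay above the threshold for every one of them.

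**Figure D2:**
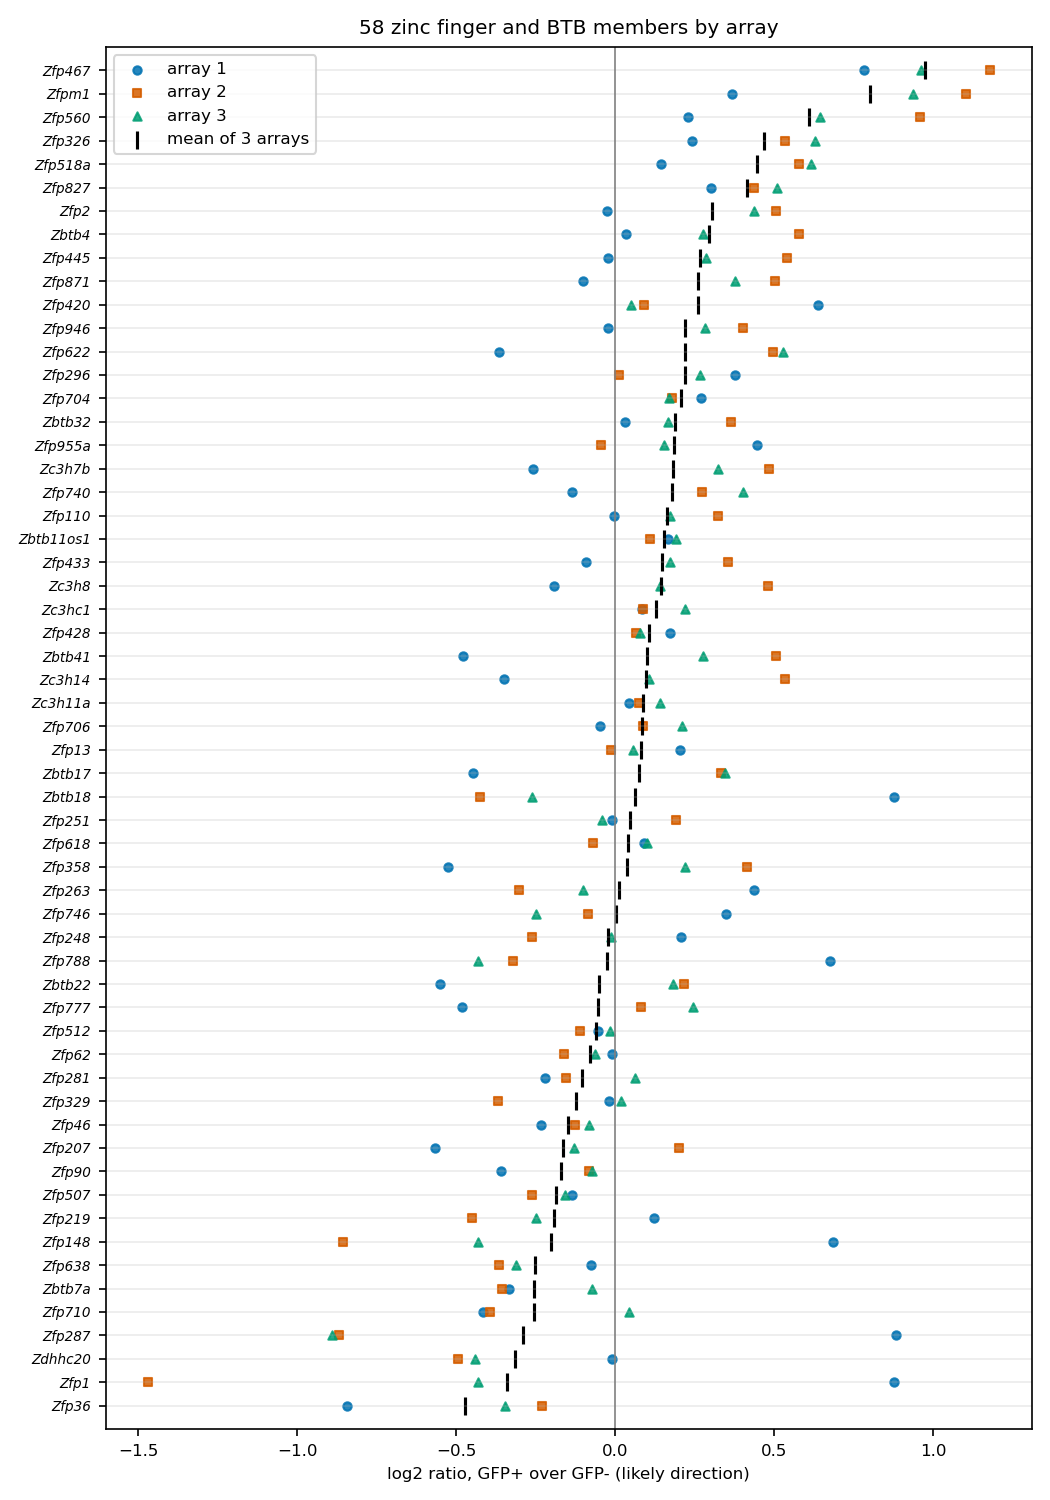
Log2 ratio of GFP+ over GFP- cells (horizontal axis) for each of the 58 members (rows, ordered by mean) on array 1 (circles), array 2 (squares) and array 3 (triangles), with the mean of the 3 as a bar. Zfp467 and Zfpm1 stand at the top with all arrays above 0, Zfp36 at the bottom with all below 0, and Zfp1 and Zfp287 show array 1 far to the right of the others.

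Of 23 Zbtb genes on the array, 8 had values on all 3 arrays, and 0 passed in limma, with 0 also at an unadjusted p below 0.05. Of all genes tested, 2.78% and 14.9% did. Their means ran from -0.25 to 0.30 with a median of 0.089. Zbtb4, which binds methylated CpG, had 0.03, 0.58 and 0.28, all positive. Zbtb32, known as a repressor of GATA factors in T cells, had 0.03, 0.37 and 0.17, and stood far below the ratio of Gata3. Zbtb7a, a repressor of fetal globin in human red cells, had -0.33, -0.35 and -0.07 and was the only one of the 8 below 0 on all arrays.

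Other Zbtb members changed sign between arrays. Zbtb17, known as Miz1 and a partner of Myc, had -0.45, 0.33 and 0.34. Zbtb41 had -0.48, 0.50 and 0.28, and Zbtb22 had -0.55, 0.22 and 0.18. In these genes array 1 was low and the others high. Zbtb17, Zbtb41 and also Zbtb4 were called higher by limma without array 1 and with array weights. Zbtb18, a repressor needed for development of the cerebral cortex, ran the opposite way with 0.88, -0.43 and -0.26. Its mean of 0.063 ± 0.71 became -0.34 without array 1 (limma adjusted p = 0.0348), a reversal of sign. The noncoding Zbtb11os1 was the most even of all 58 members, with 0.16, 0.11 and 0.19 (SD 0.041), followed by the plain Zfp gene Zfp512, with -0.05, -0.11 and -0.02 (SD 0.048).

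All 5 measured Zc3h members of 10 on the array had a positive mean, between 0.086 and 0.18. In limma 0 passed, with 0 at an unadjusted p below 0.05, against 2.78% and 14.9% of all genes tested. Zc3h11a, which takes part in export of messenger RNA, had 0.04, 0.08 and 0.14. Zc3hc1, a protein of the nuclear basket, had 0.08, 0.09 and 0.22. Both were positive on all arrays and varied little. Zc3h14, which binds poly(A) tails, had -0.35, 0.54 and 0.11, Zc3h8 had -0.19, 0.48 and 0.14, and Zc3h7b had -0.26, 0.48 and 0.32. In these last 3 genes array 1 was below 0 and both other arrays above it. Zc3h7b was called higher without array 1 (limma adjusted p = 0.0223) and with array weights.

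Few palmitoyltransferases were covered: 1 of 15 Zdhhc genes had values on all 3 arrays, and 9 had none. Zdhhc20, which palmitoylates the EGF receptor in human cells, had -0.01, -0.49 and -0.44. Array 1 was near 0 and the others were negative. The mean of -0.32 ± 0.26 did not pass (limma adjusted p = 0.485). Of the 5 Zkscan genes and Zfx, 0 had values on all 3 arrays. Zfx, a regulator of stem cell renewal encoded on the X chromosome, had 0.84 on array 1 and -0.55 on array 3, and Zkscan5 had -0.10 and -0.31 on arrays 2 and 3.

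The ratios of array 1 stood apart from those of arrays 2 and 3, among the members as among all genes. Array 1 alone had the opposite sign in 26 of the 58 members (44.8%) and in 50.01% of all genes. In 17 of the 26 array 1 was below 0 and the others above, and in 9 it was the reverse. All 3 arrays had the same sign in 24 members (41.4%), 15 positive and 9 negative, and in 35.9% of all genes. Across the 58 members, which share their arrays and are not independent, Pearson's r was -0.25 between arrays 1 and 2, -0.14 between arrays 1 and 3 and 0.88 between arrays 2 and 3; over all genes it was 0.080, 0.28 and 0.88. The members' median ratio was -0.010, 0.087 and 0.14 on arrays 1, 2 and 3, close to the -0.044, 0.090 and 0.083 of all genes.

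**Figure D3:**
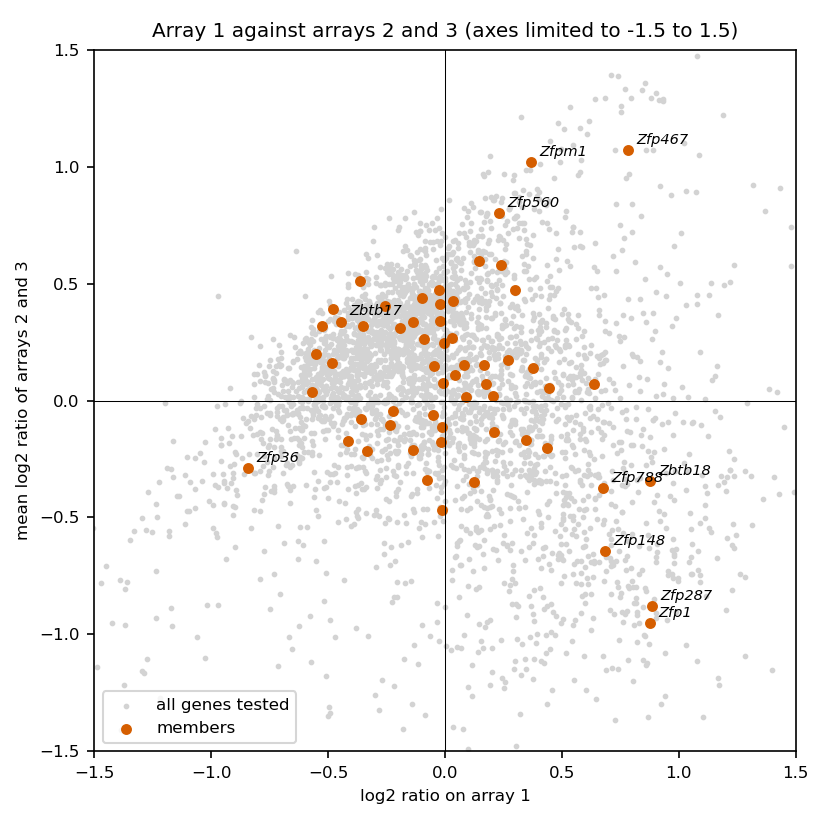
Log2 ratio on array 1 (horizontal axis) against the mean log2 ratio of arrays 2 and 3 (vertical axis) for the 58 members (large points) and all genes tested (small points), both axes limited to -1.5 to 1.5. Zfp467, Zfpm1 and Zfp560 lie at the upper right, while Zfp1, Zfp287, Zfp148 and Zbtb18 lie at the lower right, positive on array 1 and negative on the others.

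The counts were also taken without array 1. Then 17 members were higher and 8 lower, against 27.6% and 18.9% of all genes called in those directions (29.3% and 13.8% of the members). The 17 included Zfp467 (1.07), Zfpm1 (1.02), Zfp560 (0.80), Zfp518a, Zfp326 and Zfp827, and the 8 included Zfp1 (-0.95), Zfp287 (-0.88), Zfp148 (-0.64), Zdhhc20 and Zbtb18. These counts rest on 2 arrays that correlate closely. Limma with array weights gave 17 higher and 9 lower, with 33.4% and 22% of all genes called. The weights were 0.15, 1.55 and 4.31 on arrays 1, 2 and 3. Array 1 thus counted little, and this fit is not separate evidence from the one without it. Without array 2 or array 3, and with arrays 2 and 3 averaged, 0 members passed in either direction, where 3.04%, 1.89% and 2.2% of all genes did. At an unadjusted p below 0.05, limma then gave 2, 1 and 2 members higher and 0 lower. Of all 3915 genes, 162, 96 and 113 were higher and 172, 126 and 143 lower in these fits.

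**Figure D4:**
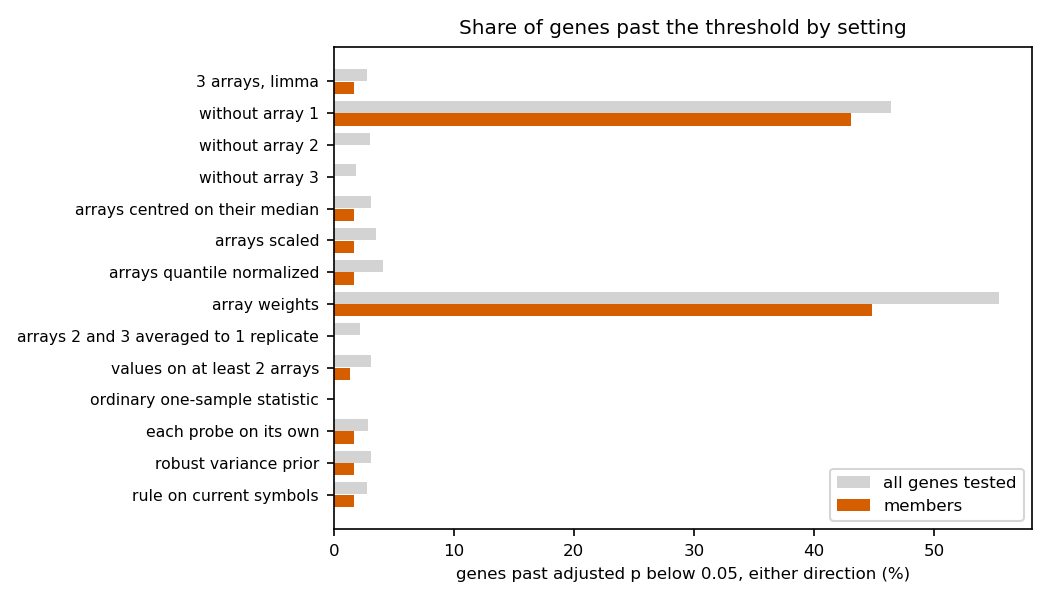
Percent of genes past an adjusted p below 0.05 in either direction (horizontal axis) for all genes tested (grey) and members (orange) under each setting of the fit (rows). The members' share is 1.72% against 2.78% of all genes with 3 arrays, and 43.1% against 46.4% without array 1.

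Members lie on 17 chromosomes, with 10 on chromosome 7 and 6 on chromosome 6. On chromosome 6, Zfp777, Zfp746 and Zfp467 follow each other within 1 Mb from start to start. Zfp777 had a mean of -0.05 and Zfp746, a repressor known as PARIS, 0.0041, both changing sign between arrays, while Zfp467 had 0.97. Of the 7 neighbouring pairs within that distance, the pair of Zfp746 and Zfp467 differed most, by 0.97. That rank follows from Zfp467 having the highest mean of all members. Zfp420 and Zbtb32 on chromosome 7 (0.26 and 0.19) were among the closest. The members of chromosome 7 had a median of 0.040, against 0.033 over all genes tested there. Those of chromosome 15 had 0.18, against 0.010. All 5 had a positive mean, but each was below 0 on array 1. On chromosome 11, 2 of 5 members had a positive mean, and on chromosome 14, 0 of 2. Probes of C2H2 genes can share signal with related genes of like sequence, and the probe sequences were not analysed here. Zfp618 was the only member with more than 1 probe on all 3 arrays, and its probes gave -0.31, 0.04 and 0.15 for the first and 0.49, -0.19 and 0.04 for the other.

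The partners of these proteins were taken from lists of known cofactors. Of 24 listed genes of the KRAB corepressor and heterochromatin, 16 were measured, with a median of -0.077, and 0 passed in limma (0 at an unadjusted p below 0.05). Trim28, the corepressor that KRAB domains bind, had -0.68, -0.16 and 0.03, and its mean of -0.27 ± 0.37 did not differ from 0 beyond its spread. Cbx1, a heterochromatin protein, had -0.30 ± 0.68, Atf7ip, a partner of the methyltransferase Setdb1, -0.27 ± 0.69, and the deacetylase Hdac2 -0.21 ± 0.20. Of 21 genes of BTB corepressors and ubiquitin ligase, 7 were measured, with a median of -0.0051, and 0 passed (0 unadjusted). Rbx1, the RING subunit of Cul3 ligases, had 0.31 ± 0.49, Sap30 -0.077 ± 0.11, Sin3a -0.069 ± 0.52 and Hdac3 0.062 ± 0.35. Without array 1, limma called 1 gene higher and 2 lower in each of these lists. Rbx1 was among those higher, and Cbx1, Atf7ip and Sin3a among those lower. Of all genes, 27.6% and 18.9% were called in those directions.

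Of 49 genes of messenger RNA deadenylation and decay, 19 were measured with a median of 0.087, and 0 passed in limma, with 1 higher and 1 lower at an unadjusted p below 0.05. These were the decapping enzyme Dcp2 (0.54 ± 0.27) and Btg2 (-0.58 ± 0.46), which activates deadenylation. The exosome subunits Exosc4 (0.46 ± 0.41) and Exosc8 (0.38 ± 0.47) followed. Without array 1, limma called Dcp2, Exosc4 and Exosc8 higher and Btg2 lower. Of 17 transcripts known to be controlled by Zfp36, 7 were measured, 2 fell, and the median was -0.81. The chemokines Cxcl2 (-2.37 ± 0.17, limma adjusted p = 0.00321) and Ccl2 (-1.71 ± 0.14, 0.00604) fell, while Cxcl1 (-0.90 ± 0.30) and Fos (-0.81 ± 0.81) did not pass over all genes. Cxcl1 passed as lower after centring, scaling or quantile normalization, without array 1, without array 2 and with array weights (adjusted p up to 0.0488), and Fos without array 1 (-1.26, 0.00123) and with array weights. These chemokines are made by immune and stromal cells, and all 5 measured macrophage and leukocyte markers of 7 fell, with means from -2.84 to -1.56; their part in the ratios of Zfp36 and of these transcripts was not tested.

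Of 13 genes of the palmitoylation cycle 3 were measured: Selenok, a selenoprotein that works with a Zdhhc enzyme, had 0.30 ± 0.06, the Wnt acyltransferase Porcn 0.26 ± 0.04 and Golga7 -0.20 ± 0.49 (median 0.26). Of 28 zinc transport and storage genes 4 were measured, with a median of 0.067; the metallothionein Mt1 had 0.41, 0.42 and 0.47, Slc30a7 0.13 ± 0.35, Slc39a10 0.0064 ± 0.17 and Slc39a3 -0.059 ± 0.26. None of these 7 genes passed in limma, and Mt1 alone had an unadjusted p below 0.05. Without array 1, limma called Selenok, Mt1 and Slc30a7 higher and Golga7 lower.

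Zinc finger proteins with other symbols reached larger ratios at both ends. Of 115 listed, 39 were measured, with a median of 0.080, close to the 0.083 of the members; 1 rose and 1 fell. Bcl11b, a C2H2 transcription factor of T cells and neurons, had 0.93, 1.28 and 1.28 and rose (1.17 ± 0.20, limma adjusted p = 0.0241). Wt1, the C2H2 factor of nephron progenitors and podocytes, had -1.85, -1.14 and -1.28 and fell (-1.42 ± 0.37, 0.0232); it is also one of the cap mesenchyme markers. Bcl11b missed the threshold without array 3 (limma adjusted p = 0.172) and with arrays 2 and 3 averaged (0.052), whereas Wt1 passed in both fits. Without array 1, 12 of the 39 were higher and 8 lower, near the shares of all genes given above. Hic1 (-1.15 ± 0.47) and Zeb1 (-0.81 ± 0.46), a repressor of epithelial genes, did not pass (limma adjusted p = 0.0594 and 0.159). Hic1 passed as lower when any 1 array was left out, after centring, scaling or quantile normalization, with array weights, with arrays 2 and 3 averaged and with a robust variance prior (adjusted p up to 0.046), and Zeb1 without array 1, without array 2 and with array weights. None of the 58 members had a mean as large as those of Bcl11b, Wt1 or Hic1.

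**Figure D5:**
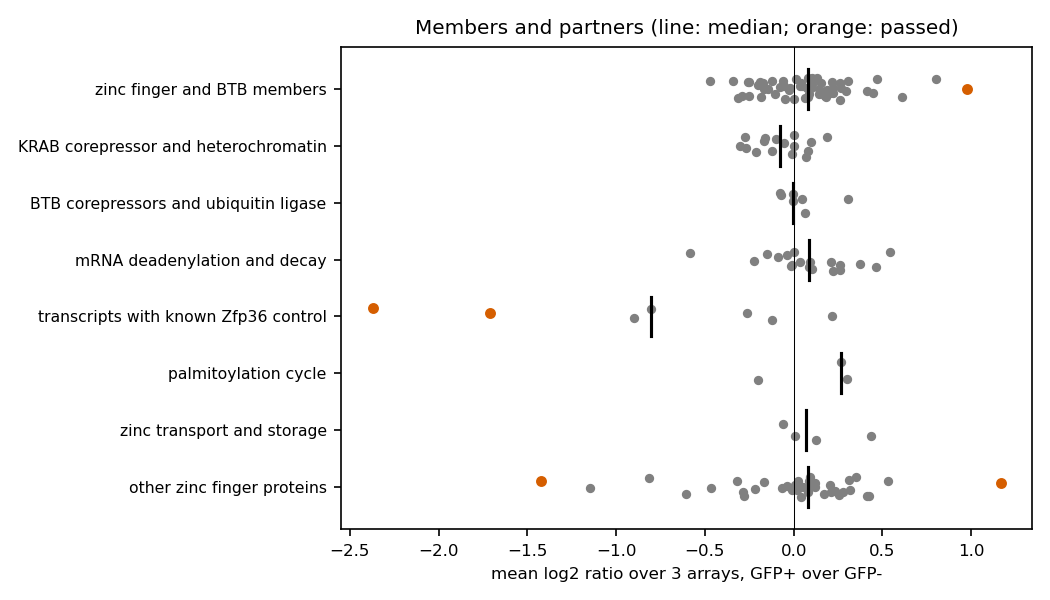
Mean log2 ratio over the 3 arrays (horizontal axis) for each measured gene of the members and of 7 partner lists (rows), with each list's median as a line and genes past the threshold in orange. The members lie between -0.47 and 0.97, and the transcripts with known Zfp36 control reach -2.37.

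The fractions were checked with marker genes. All 5 measured ureteric epithelium markers of 13 rose (means from 1.97 to 2.36), the other 8 lacking a value on at least 1 array. All 4 measured stroma markers of 7 fell (-2.46 to -1.10), though Col5a2 did not without array 3 (limma adjusted p = 0.249). Of 5 measured cap mesenchyme markers of 7, 3 fell (4 when any 1 array was left out, with Cited1). The remaining marker, Osr1, had -0.14, 0.41 and 0.25 and did not pass. Without array 1 and with array weights, Osr1 was called higher. Of 3 endothelium markers 0 passed, with 2 lower at an unadjusted p below 0.05.

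The values came from a table the authors had filtered by a rule that is not given, so members without a value were not tested. Values on all 3 arrays were present for 23.3% of the 249 member genes and 25.9% of the 15096 genes with 1 symbol on the array; 14 members had values on 2 arrays, 24 on 1 and 153 on none. Among those with 2 values, Zfp612 was highest, with 0.93 and 0.80 on arrays 2 and 3, followed by Zc3h13 (0.33 and 0.22 on arrays 1 and 3) and Zdhhc12 (-0.12 and 0.52 on arrays 1 and 2). The lowest were Zfp623, with -1.55 and -0.71, Zfp511, with -1.34 and -0.54, and Zbtb48, with -0.66 and -0.21, each on arrays 2 and 3. These lacked a value on array 1 and were not tested with the 58.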

How the data were processed

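RNA of GFP+ and GFP- cells was compared on 3 two-colour Mouse Compugen arrays. Per the labels, images were read with Imagene, and the authors fitted a Lowess curve using 20% of the points for every local fit, to adjust the control channel, raising control values below 10 to 10. The deposited values are log2 ratios: 2 to their power was a whole number of thousandths, within 0.01 of a thousandth, for 99.97% of values, against 2.37% for base e. Arrays 1, 2 and 3 had values for 5179, 4980 and 6187 gene features. The authors' normalization was kept; intensities were not analysed here, and precision is limited by having 3 arrays.

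Probes with 1 gene symbol and values on all 3 arrays (3987) were averaged to 3915 genes; symbols were updated through gene identifiers with RefSeq, while members were chosen by the platform symbol, leaving out 1 probe with several genes. A two-sided test of every gene against 0 used lmFit and eBayes of limma 3.58.1 (R 4.3.3), with Benjamini-Hochberg adjustment over all genes and a threshold of 0.05; errors are SDs over arrays and intervals are limma's at 95%. The test was run on simulated ratios with independent errors on the 3 arrays. That check does not cover the close correlation of arrays 2 and 3 seen here. Nothing in the labels says that the arrays hold separate embryo pools; p-values therefore cover only the spread between 3 arrays, which could be technical. Dye effects on single genes cannot be told apart from differences between the cells, as no dyes were swapped.

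The members and lists were chosen with earlier results of these data known. The text names every measured member outside the plain Zfp genes, the 8 highest and 8 lowest of those, the 3 largest and 3 smallest SDs, and 4 genes of largest mean per partner list; any other gene was chosen after its values were seen. Alternatives left out arrays, changed their scaling, weights or the variance model, or tested probes singly.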

Additional observations from a re-analysis of the deposited data

How the results depend on the processing

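The count of members called higher was 1 with 3 arrays, ranged from 0 to 17 when each array was left out, and was 17 with array weights, 0 with arrays 2 and 3 averaged and 0 with the ordinary one-sample statistic. The count of members called lower was 0, ranged from 0 to 8 when each array was left out, and was 9 with array weights; the cause of these differences was not tested. Centring, scaling or quantile normalization, values on at least 2 arrays, single probes, a robust variance prior and current symbols each gave 1 higher and 0 lower. The members' median was 0.083 and lay between 0.032 (arrays centred) and 0.14 (array weights) over all settings. Zbtb18 changed sign to a called value of -0.28 with array weights and -0.34 without array 1, its means lying between -0.34 and 0.31 when each array was left out. Other changes of sign concerned means past the threshold in neither fit; with Zbtb18 counted, 6, 10 and 4 of the 58 members had the other sign without arrays 1, 2 and 3, 8 with arrays 2 and 3 averaged, 5 each with centring and array weights, 2 with quantile normalization and 1 with scaling. For the 22 partner and marker genes past the threshold, the same fits were read after the data were seen: all 22 missed it with the ordinary statistic, Bcl11b and Col5a2 without array 3, and Bcl11b with arrays 2 and 3 averaged; all passed in the other fits read. Among named partner and marker genes that did not pass, Hic1, Zeb1, Cxcl1 and Cited1 also passed in fits other than those without array 1 or with array weights. Array weights were estimated gene by gene, since the default estimate stopped before it converged. The ratio within each array already pairs the fractions, so no replicate block was added.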
